A study of Homo sapiens with 12 samples.

Results

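The genes described here are 10 histone chaperones and chromatin assembly factors, taken by symbol from a table of 58233 genes. They are CHAF1A, CHAF1B, ASF1B, NASP, HAT1 and SLBP, which serve the supply and deposition of new histones during DNA replication, HIRA and DAXX, which deposit histone H3.3 outside replication, and ASF1A and ATAD2, which were placed in neither class. Their transcripts were measured by poly(A) RNA sequencing in HL-60 cells, an established human myeloid leukaemia line labelled wild type. Cells were left untreated or received for 3 h 100 nM all-trans retinoic acid (ATRA, the ligand of the retinoic acid receptors), 500 nM palbociclib (which blocks the cell-cycle kinases CDK4/6) or both, with 3 libraries per group and 12 in all. The groups shared line, genotype, medium and time, and the labels name no vehicle for the untreated cells. The study was set up to ask how CDK4/6 inhibition and ATRA act together in leukaemia cells that lack the promyelocytic gene fusion.

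Histones are basic proteins that never travel free in the cell. New H3-H4 dimers are passed from NASP and the acetyltransferase HAT1 to ASF1, and from there either to CAF-1, which loads H3.1-H4 onto newly copied DNA at the replication fork, or to the HIRA complex, which loads H3.3-H4 at any time of the cell cycle. DAXX, with its partner ATRX, places H3.3 in repeat-rich chromatin, SLBP binds the stem-loop that ends the messages of the replication-dependent histones, and ATAD2 is a chromatin-bound AAA+ ATPase with a bromodomain.

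The promoters of 4 genes are shown because these genes form the pairs compared within each library further on: CHAF1A with HIRA, the depositors of the replication-coupled and the replication-independent route, and ASF1B with ASF1A, the paralogs of 1 chaperone. Each line gives the 250 bases before the RefSeq start on GRCh38.p14, 5′ to 3′ on the gene's own strand. Capitals mark matches, on either strand, to letter strings known from cell-cycle promoters: the E2F site (TTTGGCGC, TTTCCCGC, TTTCGCGC or TTTGCCGC), its core without the first T, the CHR element (TTTGAA or TTCGAA) and the CCAAT box (CCAAT). The windows lie at chr19:4402390-4402639 on the plus strand for CHAF1A, chr22:19431734-19431983 on the minus strand for HIRA, chr19:14136590-14136839 on the minus strand for ASF1B and chr6:118893902-118894151 on the plus strand for ASF1A.
CHAF1A: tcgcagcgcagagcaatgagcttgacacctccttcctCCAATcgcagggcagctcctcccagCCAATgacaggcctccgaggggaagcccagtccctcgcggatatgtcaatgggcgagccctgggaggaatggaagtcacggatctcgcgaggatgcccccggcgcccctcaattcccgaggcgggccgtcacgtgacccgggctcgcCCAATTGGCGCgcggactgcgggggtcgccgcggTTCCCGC
HIRA: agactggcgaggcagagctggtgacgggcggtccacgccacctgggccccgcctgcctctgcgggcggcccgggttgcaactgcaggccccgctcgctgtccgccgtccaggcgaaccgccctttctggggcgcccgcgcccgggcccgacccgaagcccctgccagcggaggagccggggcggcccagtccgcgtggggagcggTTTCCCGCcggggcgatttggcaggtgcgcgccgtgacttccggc
ASF1B: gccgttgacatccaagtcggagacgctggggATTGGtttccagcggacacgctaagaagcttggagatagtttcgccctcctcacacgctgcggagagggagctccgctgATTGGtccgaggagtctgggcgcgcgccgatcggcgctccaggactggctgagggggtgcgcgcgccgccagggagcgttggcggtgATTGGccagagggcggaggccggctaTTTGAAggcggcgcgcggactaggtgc
ASF1A: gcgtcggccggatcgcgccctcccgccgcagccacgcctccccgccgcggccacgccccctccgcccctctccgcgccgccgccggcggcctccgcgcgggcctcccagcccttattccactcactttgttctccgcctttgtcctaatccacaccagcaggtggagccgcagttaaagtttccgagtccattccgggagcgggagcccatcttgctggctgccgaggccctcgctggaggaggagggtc
CHAF1A held 4 CCAAT matches, which began 213, 188, 41 and 38 bases before the start, and 2 E2F cores at 37 and 7 bases, of which the first overlaps the last CCAAT match. HIRA held 1 E2F site at 45 bases, with the core inside it. ASF1B held 3 CCAAT matches at 219, 140 and 53 bases and 1 CHR match at 27 bases, while ASF1A had no match before its start and 1 CCAAT 16 bases after it. Among 35116 RefSeq promoter windows of 300 bases, which run 50 bases past the start, the E2F site was found in 3.315%, the core in 12.966%, the CHR in 16.4% and the CCAAT box in 34.6%. Among the 7472 of these windows that belong to genes tested here the shares were 5.902%, 21.079%, 12.1% and 36.5%. Of the other members with a window, CHAF1B held 1 E2F core at 2 bases, NASP 1 CCAAT at 203 bases and HAT1 1 CCAAT at 81 bases, and SLBP held none of these strings. In the GENCODE release 44 annotation the last 24 bases of the ASF1B window are exonic for ASF1B, 125 bases of the ASF1A window are exonic for MCM9 on the opposite strand, and the CHAF1A and HIRA windows hold no exon. The HIRA window nonetheless lies inside the HIRA gene as annotated there (chromosome 22, 19330698 to 19447450, minus strand), not before its outermost start.

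The values are read counts scaled to transcript length and library size (RPKM) that the authors rounded to whole numbers. A listed value thus stands for a range of 0.5 RPKM to either side. The paper gives the read number only as an average per sample, so the depth of each library is not known. RPKM summed to 358455 to 390247 per library, and 13127 to 13447 genes were listed at 1 RPKM or more. The myeloid markers MPO, PRTN3, AZU1 and CD33 were above 0 in all 12 libraries, ELANE was listed at 0 or 1 RPKM, and the 5 myeloid markers summed to 1342 to 1839 RPKM, whereas T cell and erythroid markers were at 0 throughout and B cell markers summed to at most 1. The first library of each treated group stood apart. It shared 9.53% to 10.1% of whole-number values with libraries 2 and 3 of its group over 4143 well-expressed genes, against 18.7% to 23.5% between libraries 2 and 3 and 16.1% to 19.3% among the untreated. Counts of members are therefore also given without these 3 libraries. The labels do not say that the 3 libraries of a group came from separate cultures. The methods give independent experiments as a general rule without naming the sequencing, so the p-values measure the spread between these libraries. In a bulk sample, fewer cells in a given phase and less RNA per cell cannot be told apart.

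All 10 members reached 5 RPKM in at least 3 libraries and were tested with 7820 genes in all. CHAF1B reached this level only in the untreated and ATRA libraries, so it passed the filter through the groups where it is high. Its calls were kept with the filter at 1 RPKM. The level for a call was an adjusted p under 0.001 (limma, with Benjamini-Hochberg adjustment across every gene tested), and counts at 0.05 are given beside it. In untreated cells SLBP was the most abundant at 89.3 ± 2.31 RPKM (SD, n = 3), followed by NASP at 44.3 ± 2.52 and ATAD2 at 33.3 ± 1.53. ASF1A (28.3), ASF1B (27.0), HAT1 (24.7) and DAXX (24.7) followed, and neighbours in this order overlapped. CHAF1A stood below them at 21.0 ± 1.0, and CHAF1B and HIRA were equal at 8 RPKM in each library.

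With palbociclib alone the replication-coupled members stood at 45.8% to 82.4% of their untreated means and ATAD2 at 55.0%, while HIRA stood at 91.7%, ASF1A at 97.6% and DAXX at 101%. CHAF1A fell, the 1 member of 10 called, where 0.486% of the genes tested were called lower. At 0.05 CHAF1A, CHAF1B, SLBP, ATAD2 and ASF1B were lower, 5 of 10 against 3.16% of the genes tested. In 7 of 10 members every palbociclib library lay below every untreated library (CHAF1A, CHAF1B, ASF1B, NASP, HAT1, SLBP and ATAD2), against 9.48% of all genes tested. No member was called higher (0.0128% of the genes tested, and 0.908% at 0.05), and none lay wholly above the untreated libraries (5.74%). The median log2 fold change was -0.66 over the 6 replication-coupled members and -0.05 over HIRA and DAXX, against 0.0 over all genes tested. NASP and HAT1 were counted among these 6, although they also supply the HIRA complex through ASF1. With the first library of each treated group left out 1 member was called (0.23% of the genes tested), then SLBP (adjusted p = 0.00023) instead of CHAF1A (adjusted p = 0.00165), and 5 at 0.05 (5.41%).

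**Figure D1:**
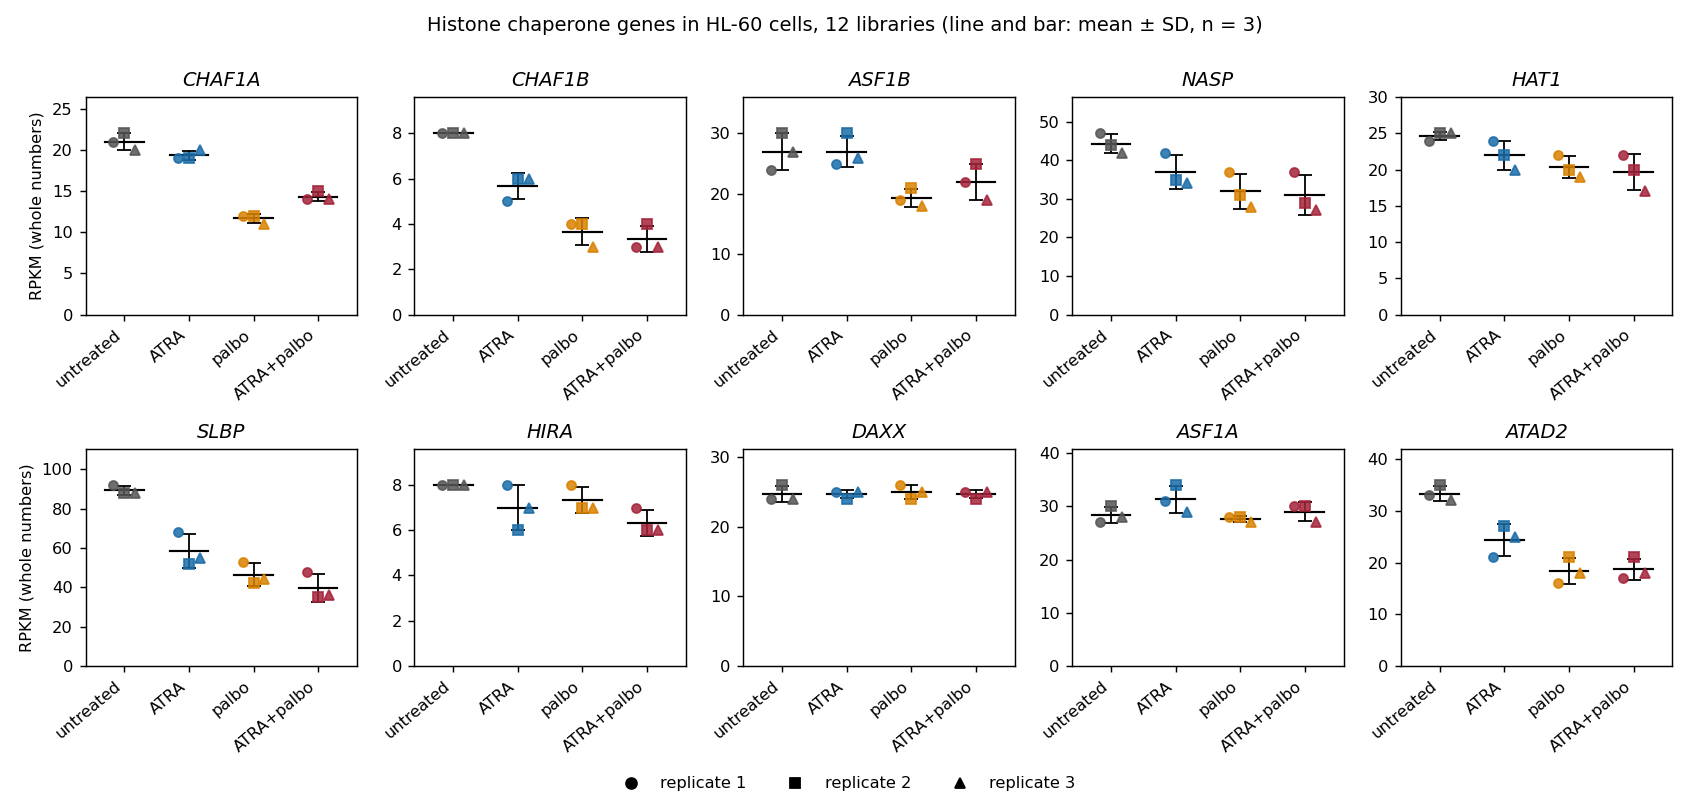
RPKM of the 10 genes in each of the 12 libraries (vertical axes from 0, in whole-number RPKM; horizontal axis, the 4 treatment groups; circles, squares and triangles are replicates 1, 2 and 3; lines and bars are the mean ± SD of 3 libraries). CHAF1A lies at 20 to 22 RPKM in untreated cells and at 11 to 12 RPKM with palbociclib, while DAXX stays between 24 and 26 RPKM in all libraries.

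CHAF1A encodes the large subunit of CAF-1 (ENSG00000167670, chromosome 19, 4402640 to 4445018, plus strand, GENCODE on GRCh38). It was listed at 21, 22 and 20 RPKM in untreated cells, 19, 19 and 20 with ATRA, 12, 12 and 11 with palbociclib and 14, 15 and 14 with both. The 3 palbociclib libraries were the lowest of the 12, the 3 combination libraries came next, and both groups were clear of the untreated and ATRA libraries, which touched at 20. With palbociclib alone it fell to 55.6% of the untreated mean (log2 fold change -0.84, SE 0.06, adjusted p = 7.36e-05), and rounding allows 51.9% to 59.3%. This call was lost without untreated replicate 1 (adjusted p = 0.00124), where 0 of all 7820 genes tested were called. The call was also lost when only the 2 groups entered the fit (adjusted p = 0.00686), where 0.0128% of the genes tested were called lower. With both drugs CHAF1A fell to 68.3% of untreated (log2 fold change -0.55, SE 0.06, adjusted p = 7.52e-05), and with ATRA alone it stood at 92.1% (log2 fold change -0.12, adjusted p = 0.199).

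CHAF1B encodes the middle subunit of CAF-1 (ENSG00000159259, chromosome 21, 36385392 to 36419015, plus strand). It was listed at 8, 8 and 8 RPKM in untreated cells, 5, 6 and 6 with ATRA, 4, 4 and 3 with palbociclib and 3, 4 and 3 with both. Each treated group lay below the untreated one without overlap, and the palbociclib and combination libraries overlapped. It fell with both drugs (log2 fold change -1.25, SE 0.14, adjusted p = 9.94e-05) to 41.7% of untreated, within 33.3% to 51.1% allowed by rounding. With palbociclib alone the log2 fold change was -1.12 (SE 0.14, adjusted p = 0.00168), and with ATRA alone it was -0.50 (adjusted p = 0.0321), past the 0.05 level only. At 3 to 8 RPKM the rounding step is a large share of the value, and the equal untreated values do not mean that these libraries did not differ.

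ASF1B (ENSG00000105011, chromosome 19, 14119512 to 14136613, minus strand) encodes the ASF1 paralog tied to proliferating cells. It was listed at 24, 30 and 27 RPKM in untreated cells, 25, 30 and 26 with ATRA, 19, 21 and 18 with palbociclib and 22, 25 and 19 with both. The palbociclib libraries lay below the untreated ones, whereas the combination overlapped all other groups. With palbociclib alone its log2 fold change was -0.48 (SE 0.12, adjusted p = 0.048), at the edge of the 0.05 level, and adjusted p was 0.134 without the first library of each treated group. It was -0.30 (adjusted p = 0.0795) with both drugs and 0.00 (adjusted p = 1.0) with ATRA alone.

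NASP (ENSG00000132780, chromosome 1, 45583846 to 45618904, plus strand) encodes the chaperone that holds the soluble pool of H3 and H4. Its values were 47, 44 and 42 RPKM in untreated cells, 42, 35 and 34 with ATRA, 37, 31 and 28 with palbociclib and 37, 29 and 27 with both. Replicate 1 was the highest of each group, and the palbociclib and combination libraries lay below the untreated ones. The log2 fold change was -0.48 with palbociclib (SE 0.13, adjusted p = 0.077), which did not pass, and -0.53 with both drugs (SE 0.13, adjusted p = 0.013), past 0.05 only. These became -0.59 (adjusted p = 0.00591) and -0.66 (adjusted p = 0.000771) without the first library of each treated group.

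HAT1 (ENSG00000128708, chromosome 2, 171922448 to 171983686, plus strand) encodes the enzyme that acetylates newly made histone H4. It was listed at 24, 25 and 25 RPKM in untreated cells, 24, 22 and 20 with ATRA, 22, 20 and 19 with palbociclib and 22, 20 and 17 with both. The range was narrow, and replicate 1 was again the highest of each treated group. The log2 fold change was -0.28 with palbociclib (SE 0.10, adjusted p = 0.157) and -0.33 with both drugs (SE 0.10, adjusted p = 0.0263).

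SLBP (ENSG00000163950, chromosome 4, 1692731 to 1712344, minus strand), the histone messenger binding protein, was lower in all 3 treated groups. It was listed at 92, 88 and 88 RPKM in untreated cells, 68, 52 and 55 with ATRA, 53, 42 and 44 with palbociclib and 48, 35 and 36 with both. Every treated library lay below every untreated one, and replicate 1 was the highest of each treated group. SLBP fell with both drugs to 44.4% of untreated (log2 fold change -1.18, SE 0.14, adjusted p = 0.000104), a call lost without untreated replicate 1 (adjusted p = 0.00108). In that fit 162 of all 7820 genes tested were called lower, against 335 with all 12 libraries. SLBP stood at 51.9% with palbociclib (log2 fold change -0.95, SE 0.14, adjusted p = 0.00358) and at 65.3% with ATRA (log2 fold change -0.62, SE 0.14, adjusted p = 0.00843), both past 0.05 only. SLBP was called without the first library of each treated group in both of these comparisons, with log2 fold changes of -1.05 (adjusted p = 0.00023) and -0.74 (adjusted p = 8.85e-05).

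HIRA (ENSG00000100084, chromosome 22, 19330698 to 19447450, minus strand), the scaffold of the H3.3 deposition complex, was listed at 8, 8 and 8 RPKM in untreated cells, 8, 6 and 7 with ATRA, 8, 7 and 7 with palbociclib and 7, 6 and 6 with both. Only the combination was clear of the untreated libraries. With palbociclib the log2 fold change was -0.13 (95% interval -0.36 to 0.11, adjusted p = 0.616), -0.20 with ATRA (adjusted p = 0.224) and -0.34 with both drugs (adjusted p = 0.0357), the last past 0.05 only. In the GENCODE annotation 66.5% of its exonic bases are shared with C22orf39 on the same strand, and reads there may not have been counted for either gene.

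DAXX (ENSG00000204209, chromosome 6, 33318558 to 33323016, minus strand), the H3.3 chaperone of repeat-rich chromatin, was listed at 24, 26 and 24 RPKM in untreated cells, 25, 24 and 25 with ATRA, 26, 24 and 25 with palbociclib and 25, 24 and 25 with both. All groups overlapped. With palbociclib the log2 fold change was 0.02 (95% interval -0.10 to 0.14) and 0.00 with both drugs (-0.12 to 0.12), with adjusted p = 0.89 and 1.0.

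ASF1A (ENSG00000111875, chromosome 6, 118894152 to 118909171, plus strand), the ASF1 paralog that hands H3-H4 to HIRA as well as to CAF-1, was listed at 27, 30 and 28 RPKM in untreated cells, 31, 34 and 29 with ATRA, 28, 28 and 27 with palbociclib and 30, 30 and 27 with both. All 3 treated groups overlapped the untreated one. The log2 fold change was -0.03 with palbociclib (95% interval -0.19 to 0.12, adjusted p = 0.855) and 0.14 with ATRA (adjusted p = 0.188).

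ATAD2 (ENSG00000156802, chromosome 8, minus strand) was listed at 33, 35 and 32 RPKM in untreated cells, 21, 27 and 25 with ATRA, 16, 21 and 18 with palbociclib and 17, 21 and 18 with both. Every treated library lay below every untreated one, and in contrast to NASP and SLBP replicate 1 was the lowest of each treated group. ATAD2 fell with both drugs to 56.0% of untreated (log2 fold change -0.84, SE 0.12, adjusted p = 0.00043). That call was lost with the filter at 1 RPKM (adjusted p = 0.00179), with no filter (adjusted p = 0.00189), without any 1 of 7 libraries (adjusted p = 0.00105 to 0.00324), among them untreated replicates 1, 2 and 3, and without the first library of each treated group (adjusted p = 0.0016). In the 7 fits without 1 library 162 to 288 of all 7820 genes tested were called lower, against 335 with all 12 libraries. The log2 fold change was -0.87 with palbociclib (SE 0.12, adjusted p = 0.00287) and -0.46 with ATRA (SE 0.12, adjusted p = 0.0203).

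**Figure D2:**
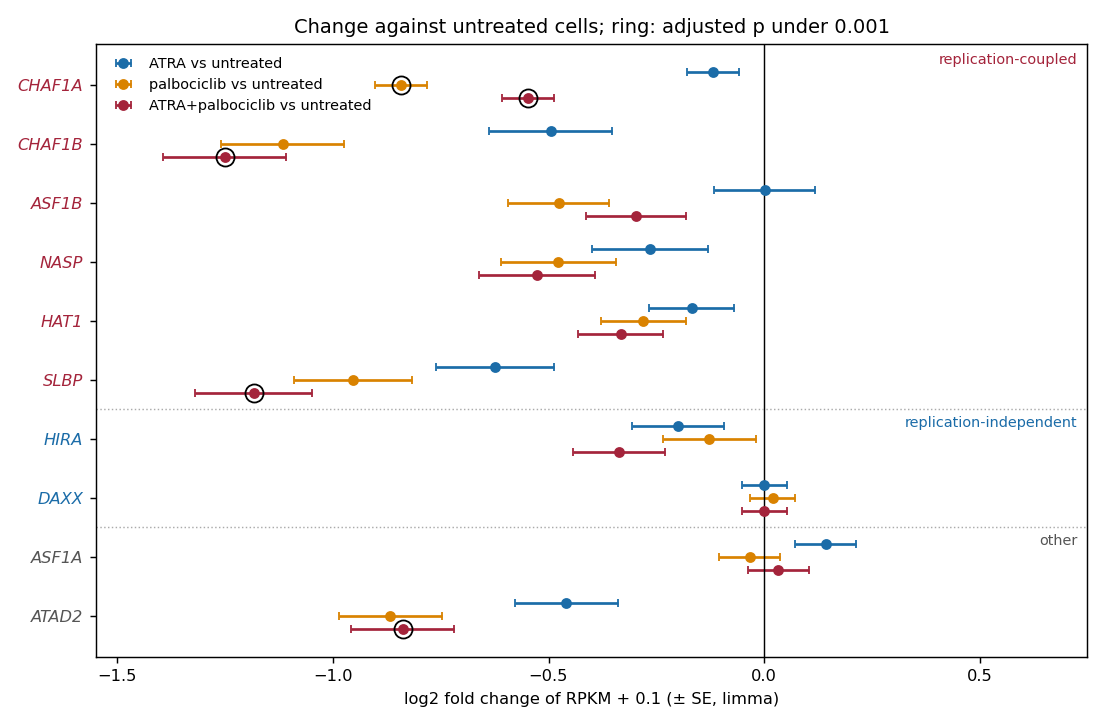
Log2 fold change of RPKM + 0.1 against untreated cells for the 10 genes (horizontal axis, bars ± SE from limma over 12 libraries; blue, ATRA; orange, palbociclib; red, both; rings mark an adjusted p under 0.001). The rings are on CHAF1A with palbociclib (-0.84) and on CHAF1A, CHAF1B, SLBP and ATAD2 with both drugs (-0.55, -1.25, -1.18 and -0.84).

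ATRA alone called none of the 10 members at 0.001, where 1.94% of the genes tested were called lower and 2.77% higher. At 0.05 SLBP, ATAD2 and CHAF1B were lower, 3 of 10 against 11.6% of the genes tested, and these same 3 were the members that lay wholly below the untreated libraries, against 17.3%. None was higher at 0.05 (8.71%) or lay wholly above (12.4%). At an unadjusted p under 0.05, 1484 genes were lower and 1102 higher in all. The median log2 fold change was -0.22 over the replication-coupled members, -0.10 over HIRA and DAXX and -0.01 over all genes tested. Without those first libraries 1 member (SLBP) was called at 0.001, against 2.15% of the genes tested, and 4 at 0.05, against 19.3%, and HIRA and NASP were then among them (adjusted p = 0.0145 and 0.00991) while CHAF1B was not (adjusted p = 0.0901).

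Both drugs together lowered 4 of 10 members, CHAF1A, CHAF1B, SLBP and ATAD2, where 4.28% of the genes tested were called lower and 3.76% higher. At 0.05 the count was 7, with NASP, HAT1 and HIRA added, against 17.7% of the genes tested, and 7 members lay wholly below the untreated libraries, against 20.6%. None was higher at 0.05 (12.7%) or lay wholly above (15.3%). When only the untreated and combination libraries entered the fit, none of the 4 was called (adjusted p = 0.00301 to 0.00402), and only 0.281% of all genes tested were called lower in that fit. With the first treated libraries omitted 2 were called, SLBP and NASP, against 4.4% of the genes tested, 7 passed 0.05, against 24.1%, and CHAF1A and CHAF1B stood at adjusted p = 0.00125 and 0.00183. The 3 comparisons against untreated cells share the same 3 untreated libraries.

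Averaged over both ATRA levels, 6 libraries with palbociclib against 6 without, CHAF1A (log2 fold change -0.64, SE 0.04, adjusted p = 3.2e-05) and CHAF1B (-0.94, SE 0.10, adjusted p = 0.000437) fell, 2 of 10 members against 0.563% of the genes tested, and none was called higher (0.0128%). SLBP (-0.76, adjusted p = 0.00142), ATAD2 (-0.62, adjusted p = 0.00209) and ASF1B (-0.39, adjusted p = 0.0267) passed 0.05, 5 of 10 against 3.48%, with none higher (0.895%). NASP (-0.37, adjusted p = 0.0545) and HAT1 (-0.22, adjusted p = 0.112) did not pass. For HIRA the value was -0.13 (95% interval -0.30 to 0.04), for ASF1A -0.07 (-0.18 to 0.04) and for DAXX 0.01 (-0.07 to 0.09). The CHAF1B call was lost in 9 of the 12 fits that left out 1 library (adjusted p = 0.00135 to 0.00294). In those 9 fits 10 to 40 of all 7820 genes tested were called lower, against 44 with all 12 libraries. Without the first library of each treated group the 1 member called was SLBP (adjusted p = 0.000202), against 0.32% of the genes tested. Averaged over palbociclib, ATRA gave no call among the members, against 4.94% of the genes tested called lower and 4.68% higher, and SLBP (log2 fold change -0.43, adjusted p = 0.00699) and CHAF1B (-0.31, adjusted p = 0.0384) passed 0.05, against 16.8% lower and 11.6% higher. SLBP was called for ATRA without the first library of each treated group (-0.51, adjusted p = 7.69e-05), against 4.46% of the genes tested.

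Whether palbociclib moved one gene of a pair more than the other was tested as a ratio within each library, which needs no scaling between libraries. The ratio of ASF1B to ASF1A was 0.951 ± 0.0567 (SD, n = 3) in untreated cells, 0.862 ± 0.0484 with ATRA, 0.698 ± 0.0451 with palbociclib and 0.757 ± 0.0679 with both. The palbociclib libraries (0.667 to 0.75) lay below all untreated ones (0.889 to 1.0), and the combination (0.704 to 0.833) overlapped ATRA (0.806 to 0.897). Palbociclib moved the log2 ratio by -0.32 on average over both ATRA levels, and the ratio was lower with both drugs than with ATRA in 3 of 3 same-numbered pairs (two-sided exact permutation test within ATRA levels, p = 0.01, adjusted over 2 pairs 0.01, smallest possible 0.005).

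The ratio of CHAF1A to HIRA was 2.63 ± 0.125 (SD, n = 3) in untreated cells, 2.80 ± 0.399 with ATRA, 1.60 ± 0.109 with palbociclib and 2.28 ± 0.255 with both. The palbociclib libraries (1.5 to 1.71) were the lowest, and the combination (2.0 to 2.5) overlapped ATRA (2.38 to 3.17). The mean shift of the log2 ratio with palbociclib was -0.50, and the ratio was lower with both drugs than with ATRA in 3 of 3 same-numbered pairs (two-sided exact permutation test, p = 0.01, adjusted over 2 pairs 0.01). HIRA at 6 to 8 RPKM makes this ratio coarse. Leaving out the first treated libraries, the shifts were -0.32 and -0.49, each with an exact p of 0.0167.

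**Figure D3:**
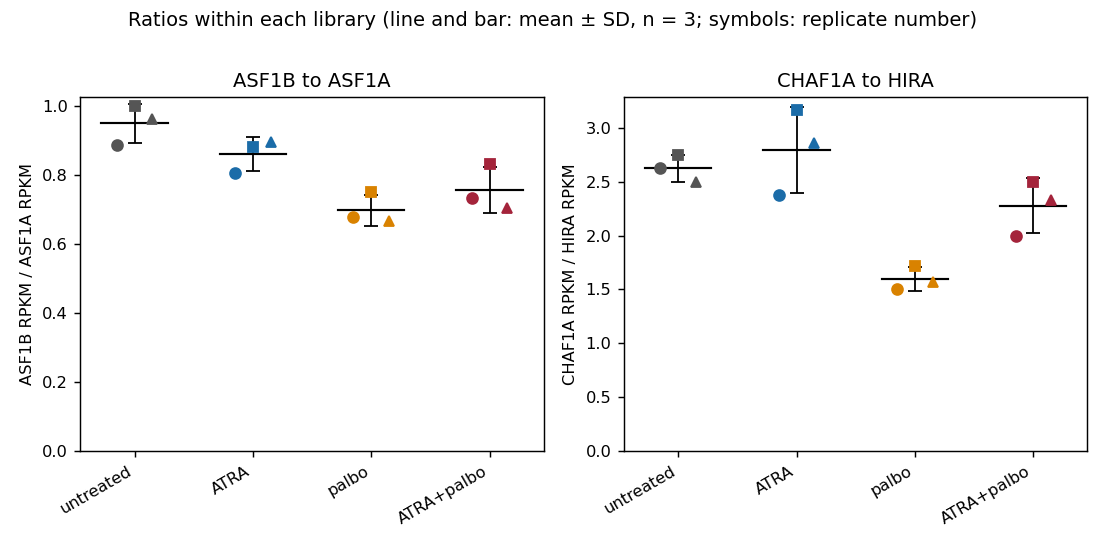
Ratio of ASF1B to ASF1A (left) and of CHAF1A to HIRA (right) in each library (vertical axes from 0; horizontal axis, treatment group; points are libraries by replicate number, lines and bars the mean ± SD of 3). With palbociclib alone both ratios, 0.698 and 1.60 on average, lie below every untreated library.

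Palbociclib on top of ATRA, the combination against ATRA alone, gave no call at 0.001 among the members or any other gene (0.0% lower in limma, with 243 genes lower and 44 higher at an unadjusted p under 0.05). CHAF1A, CHAF1B and SLBP lay wholly below their ATRA libraries, 3 of 10 against 2.52% of the genes tested (0.87% lay wholly above), and stood at 74.1%, 58.8% and 68.0% of the ATRA mean. At 0.05 CHAF1A was lower (log2 fold change -0.43, SE 0.06, adjusted p = 0.028), 1 of 10 against 0.115%. CHAF1B (-0.76, adjusted p = 0.0976), SLBP (-0.56, adjusted p = 0.288) and ATAD2 (-0.38, adjusted p = 0.656) did not pass. With the replicate number as a block, taken to pair these treated libraries, 4 members were lower at 0.05, against 0.639% of the genes tested. They were CHAF1A (adjusted p = 0.018), SLBP (0.0181), ATAD2 (0.0431) and CHAF1B (0.0434). That the numbers pair these libraries is not established. SLBP was the 1 member past 0.05 without the first treated libraries (adjusted p = 0.0083), against 0.499% of the genes tested.

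ATRA on top of palbociclib, the combination against palbociclib alone, gave no call among the members at 0.001, where 0.997% of the genes tested were lower and 2.11% higher. CHAF1A was higher with both drugs than with palbociclib alone (log2 fold change 0.30, SE 0.06, adjusted p = 0.00796), the 1 member past 0.05 in this direction against 5.86% of the genes tested and the 1 without overlap against 8.26%. No member was lower at 0.05 (6.64% of the genes tested) or lay wholly below (9.86%). SLBP had a log2 fold change of -0.23 (adjusted p = 0.369, and 0.0424 with the replicate block, where 13.4% were lower at 0.05). Without the first treated libraries SLBP was lower at 0.05 (-0.28, adjusted p = 0.00821), where 10.1% of the genes tested were lower. CHAF1A was higher there (0.33, adjusted p = 0.0212), where 7.61% were higher.

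On the log2 scale the effect of palbociclib was smaller in the presence of ATRA for 7 of the 10 members, but no departure from additivity was called for a member or any other of the 7820 genes tested (0.0% in each direction in limma, with 154 genes above and 82 below 0 at an unadjusted p under 0.05). With the filter lowered to 1 RPKM, 54 genes were called above and 31 below 0 among 14003, none of them a member. The departure was 0.49 for ATAD2 (SE 0.17), 0.41 for CHAF1A (SE 0.08), 0.39 for SLBP (SE 0.19) and 0.36 for CHAF1B (SE 0.20), each with adjusted p = 1.0. It was positive for CHAF1A, CHAF1B, ASF1B, NASP, HAT1, SLBP and ATAD2, where 47.7% of the genes tested had a positive and 49.0% a negative value, and it lay between -0.08 and -0.01 for HIRA, DAXX and ASF1A. That of SLBP was 0.46 (adjusted p = 0.0437) with the first treated libraries left out, where 0.205% of the genes tested passed 0.05.

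**Figure D4:**
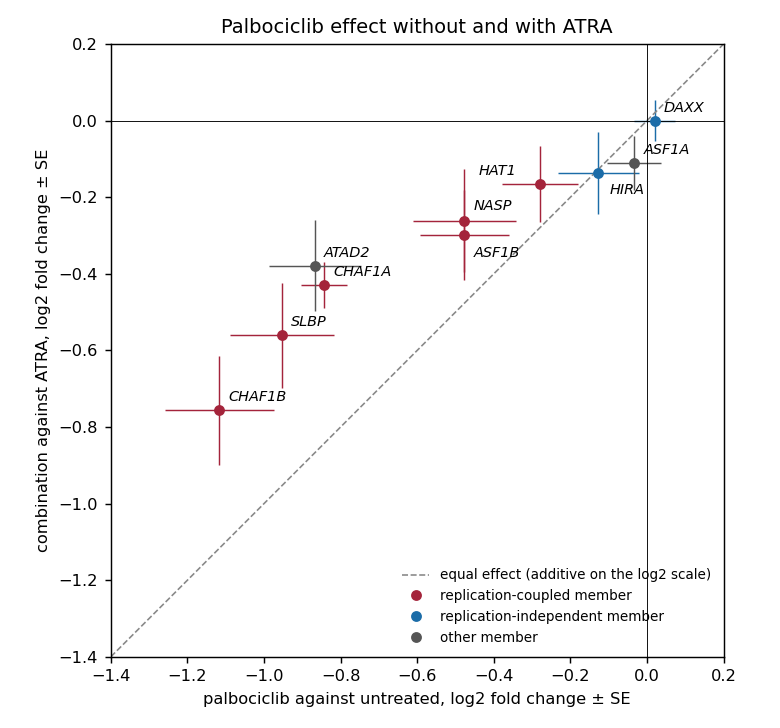
Palbociclib effect on each gene without ATRA (horizontal axis, log2 fold change against untreated) and with ATRA (vertical axis, log2 fold change of the combination against ATRA), with SE bars; the dashed line marks equal effects. CHAF1A (-0.84 and -0.43) and ATAD2 (-0.87 and -0.38) lie above the line by 0.41 and 0.49, and DAXX, HIRA and ASF1A lie near it.

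Other genes of histone supply were described by lists of 35 genes, of which 29 were tested. Among the replication-coupled partners, 8 of 10 were tested and all 8 had a negative log2 fold change with palbociclib alone, with a median of -0.52. Of all 7820 genes tested 3652 had a negative value in this comparison. MCM2, a helicase subunit that also carries H3-H4 at the fork, was called (76, 79 and 78 RPKM in untreated cells, 51, 50 and 46 with palbociclib, log2 fold change -0.66, adjusted p = 0.000287). UHRF1, which recruits the maintenance methyltransferase to new DNA, was called as well (48, 58 and 55 against 26, 31 and 30 RPKM, log2 fold change -0.89, adjusted p = 0.000671). PCNA, the sliding clamp to which CAF-1 binds, went from 261, 276 and 256 RPKM to 168, 143 and 114 (log2 fold change -0.92, adjusted p = 0.00768), past 0.05 only. These are 2 of 8 partners called and 6 of 8 at 0.05, beside 0.486% and 3.16% of all genes tested. Both calls were lost without untreated replicate 1, where 0 of all 7820 genes tested were called lower. With only the 2 groups in the fit at most 1 of them was called, since 1 gene in all was called lower there. The decrease was not confined to palbociclib, and all 8 values were also negative with ATRA alone and with both drugs. With ATRA alone (median -0.22) 1 of 8 was called and 4 were lower at 0.05, beside 1.94% and 11.6% of all genes. With both drugs (median -0.55) the counts were 4 and 7, beside 4.28% and 17.7%.

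None of the 8 tested genes of replication-independent and variant deposition was called in any comparison with untreated cells, where 1.94%, 0.486% and 4.28% of all genes were lower with ATRA, palbociclib and both, so that 0 of 8 is near the background. At 0.05, 1 of 8 was lower with ATRA, 0 with palbociclib and 2 with both drugs, beside 11.6%, 3.16% and 17.7% of all genes. Their median log2 fold change with palbociclib was -0.12. The lowest was MIS18A, a centromere licensing factor (-0.35, adjusted p = 0.0881), and the highest VPS72, a subunit of H2A.Z exchange complexes (0.15, adjusted p = 0.198). Of 9 general chaperones none was called with palbociclib (median -0.11), and SUPT16H, a subunit of the FACT complex, fell with both drugs (log2 fold change -0.37, adjusted p = 0.000288). At 0.05, 2 of these 9 were lower with ATRA, 2 with palbociclib and 5 with both drugs, beside the same 11.6%, 3.16% and 17.7% of all genes. Of 4 tested genes of histone messenger production none was called, and 2 had a negative value with palbociclib. CASP8AP2, a factor of the histone locus body, had the lowest (11, 11 and 10 RPKM against 4, 6 and 6, log2 fold change -1.01, adjusted p = 0.0159). LSM10 went the other way (16, 16 and 20 RPKM against 22, 19 and 21). At 0.05, 0 of these 4 were lower with ATRA, 1 with palbociclib and 1 with both drugs, and 1 was higher with both, beside 12.7% of all genes. TONSL, a reader of new histones, fell with ATRA alone (16, 16 and 16 RPKM against 12, 11 and 12, log2 fold change -0.45, adjusted p = 0.000643) and with both drugs (-0.72, adjusted p = 1.85e-05). DNAJC9, a heat shock co-chaperone of histones, fell with both drugs (9, 9 and 9 RPKM against 7, 6 and 6, log2 fold change -0.50, adjusted p = 0.000774). For TONSL and DNAJC9 rounding made the untreated values equal, which hides their spread and limits these p-values.

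**Figure D5:**
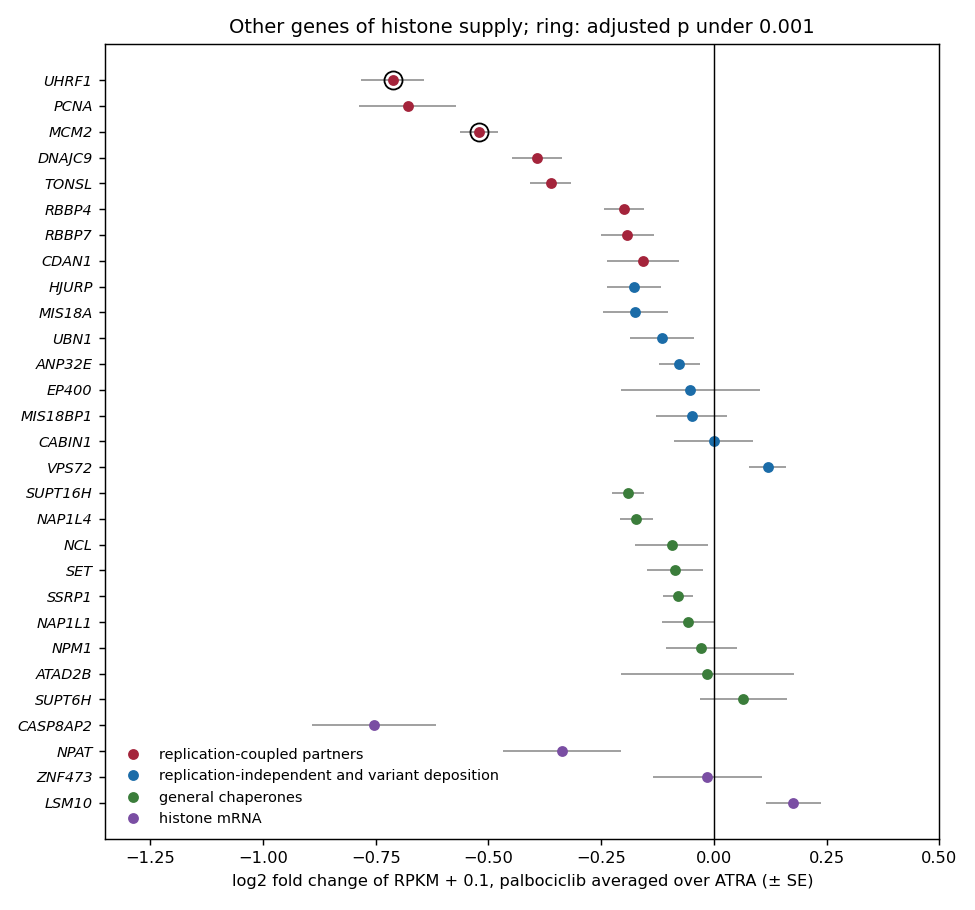
Log2 fold change of RPKM + 0.1 with palbociclib, averaged over both ATRA levels, for 29 other genes of histone supply in 4 lists (horizontal axis, bars ± SE from limma; colours mark the lists; rings mark an adjusted p under 0.001). UHRF1 (-0.71) and MCM2 (-0.52), both replication-coupled partners, carry rings, and the list of replication-independent and variant deposition lies between -0.18 and 0.12.

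The genes whose log2 RPKM followed each member most closely over the 12 libraries were listed among 7819 genes by Pearson's r, as a description, since the libraries share groups and scaling. For CHAF1A they included UBR7, a reader of post-nucleosomal histones (0.978), and the origin protein ORC1 (0.966). For CHAF1B they were the helicase subunits MCM4 (0.978) and MCM3 (0.976) and the polymerase subunit POLD3 (0.964). NASP lay nearest to TYMS, the thymidylate synthase (0.978), ASF1B to MELK (0.973), SLBP to TIPIN, a fork protection factor (0.993), and ATAD2 to WDHD1, a replisome protein (0.984). HIRA lay nearest to PRADC1 (0.959) and HAT1 to AL049779.3 (0.975), with HMGB3 next (0.969). The closest gene reached 0.872 for ASF1A (AURKA) and 0.86 for DAXX (the pseudogene HSPB1P1), and DAXX had a narrow range of 24 to 26 RPKM. Between members the highest values were 0.943 for NASP and HAT1, 0.941 for CHAF1B and ATAD2 and 0.936 for NASP and SLBP. For DAXX with the other 9 members they ranged from -0.28 (ATAD2) to 0.36 (HIRA). For HIRA they ranged from -0.27 (ASF1A) to 0.803 (SLBP), with NASP at 0.789 and HAT1 at 0.740.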

How the data were processed

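Poly(A) RNA libraries of HL-60 cells were sequenced in triplicate by the authors. Per the labels and the submitters' processing notes, reads were mapped to hg38 with HISAT2 and counted with HTSeq, whose versions are not given in the sources used here, nor is the annotation release. The deposited values were treated as a score, since they are RPKM that the authors rounded to whole numbers, and they allow no count test and no counting error. The design had assumed RPKM with decimals, and its test was kept.

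Here log2(RPKM + 0.1) was fitted with limma 3.58.1 (R 4.3.3, empirical Bayes with trend), with 1 mean per group over 12 libraries, for genes that reached 5 RPKM in 3 or more of them. Groups and replicate numbers came from the sample titles. The fit and the exact test were tested on simulated data. Exact permutation tests, figures and sequence searches used Python 3.11.15. Annotation was GENCODE release 44, and promoters were RefSeq windows of GRCh38.p14, in which 8 of 10 members are described (none was read for DAXX, and ATAD2 was not used here). Same-numbered libraries of the treated groups deviated together (correlation of deviations 0.438 to 0.908), whereas untreated libraries did so in 2 of 3 numbers (0.0453 to 0.367). The numbers were taken to pair the treated groups. Different-numbered libraries were not compared, and the first library stood apart in every treated group, so these correlations do not establish the pairing. Named genes were all members, listed pathway genes called or at the extremes, and the genes nearest to each member. Members and lists were chosen with earlier results of these data known. Omitting the first library of each treated group, and the block at 0.05, were chosen after seeing the data.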

Additional observations from a re-analysis of the deposited data

Results flagged for a closer look

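CHAF1A libraries with ATRA lay on opposite sides of their reference mean without and with palbociclib. All 3 ATRA libraries (19, 19 and 20 RPKM) lay below the untreated mean of 21.0, and all 3 combination libraries (14, 15 and 14 RPKM) lay above the palbociclib mean of 11.7. The difference between the 2 ATRA effects was 0.41 on the log2 scale (SE 0.08). The test of this difference in limma gave an unadjusted p of 0.000533 and an adjusted p of 1.0 over 7820 genes, and the adjusted p was 0.0408 to 1.0 over its alternatives, the lowest with the filter at 1 RPKM. The ATRA and untreated libraries overlapped at 20 RPKM.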

How the results depend on the processing

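No result reversed. With the threshold at an adjusted p of 0.05 in place of 0.001, the members called rose from 0 to 3 for ATRA, 1 to 5 for palbociclib, 4 to 7 for the combination, 0 to 1 for the combination against ATRA and against palbociclib, 2 to 5 for palbociclib averaged over ATRA and 0 to 2 for ATRA averaged over palbociclib. With only the 2 groups compared in the fit, 0 were called for palbociclib and 0 for the combination, where 0.0128% and 0.281% of all genes tested were lower. Leaving out 1 library gave 0 to 1 call for palbociclib (0 without untreated replicate 1), 2 to 4 for the combination (2 without untreated replicate 1) and 1 to 2 for palbociclib averaged over ATRA (1 without any 1 of 8 libraries, among them each untreated one), where without ATRA+palbociclib replicate 1 SLBP took the place of CHAF1B. Over all 7820 genes these fits called 0 to 29 lower for palbociclib, 162 to 319 for the combination and 10 to 40 for the palbociclib average. With all 12 libraries these numbers were 38, 335 and 44, so calls were lost over the whole table too. Omitting the first library of all 3 treated groups gave 1, 1, 2, 1 and 1 calls for ATRA, palbociclib, the combination and the palbociclib and ATRA averages, and at 0.05 it gave 4, 5, 7, 5 and 3, with 1 for the combination against ATRA, 2 against palbociclib and 1 for the departure from additivity. In that fit 5.08% and 23.5% of all genes were lower at 0.05 for the palbociclib and ATRA averages, and against palbociclib 10.1% were lower and 7.61% higher. Filters at 1 RPKM or none, a pseudocount of 1, median scaling and a fit without variance trend moved no count of members by over 1.5 times, although both filters ended the ATAD2 call with both drugs. The rounding, and a read depth known only as an average per sample, limit CHAF1B and HIRA most, at 8 RPKM or less.

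With the replicate number as a block, 2 members were called for ATRA (SLBP and ATAD2), 3 for palbociclib (CHAF1A, SLBP and ATAD2), 5 for palbociclib averaged over ATRA (CHAF1A, CHAF1B, NASP, SLBP and ATAD2) and 1 for ATRA averaged over palbociclib (SLBP), and at 0.05 the block gave 4, 7, 7 and 6, with 8 for the combination, 4 for the combination against ATRA and 2 against palbociclib, all lower but ASF1A for ATRA averaged over palbociclib and CHAF1A against palbociclib. Of all genes tested 4.42%, 0.997%, 1.15% and 8.84% were called lower in the first 4 of these fits, and 20.7%, 8.13%, 8.17% and 25.2% at 0.05, with 25.5%, 0.639% and 13.4% in the last 3, and 17.8% and 10.1% were higher at 0.05 for the ATRA average and against palbociclib. Whether these numbers pair the treated groups with each other, or the untreated libraries with the treated ones, is not established. Deviations of the untreated libraries correlated with those of the treated ones at 0.0453 to 0.367, over 0.1 in 2 of 3 numbers for each treated group. The block changed no other count by over 1.5 times, and for the within-library ratios it gave an exact p of 0.0312 for each pair, the smallest that 64 arrangements allow.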
